A study of Mus musculus with 12 samples.

Results

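The genes described here are the enzymes, transporters and regulators of glycolysis and glucose production, together with the oxygen-sensing genes and classic targets of the hypoxia response. They were taken as 45 listed gene symbols, matched exactly in the expression table. Of these, 44 were among the table's 19037 genes, and 41 held enough counts to be tested beside 13346 genes in all. The glucose-6-phosphatase gene G6pc was not analysed here.

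Glycolysis splits glucose into pyruvate in a chain of cytosolic steps, and most steps can be run by several isoenzymes from separate genes. In adult liver the chain is built for glucose balance, with the transporter GLUT2 and liver forms of phosphofructokinase, pyruvate kinase and PFKFB, while proliferating cells rely more on other forms. When oxygen is low, prolyl hydroxylases stop marking HIF alpha subunits for destruction, and the stabilised HIF binds a short DNA core near target genes, many of which encode glycolytic enzymes.

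RNA was sequenced in AML12 cells, a mouse hepatocyte line, in 4 groups of 3 libraries. The groups were cells given FK228 (romidepsin, an inhibitor of class I histone deacetylases, or HDACs, which the sample titles call HDI), cells overexpressing YF mutants of class I HDACs, cells with both, written FK228+YF, and control cells. The study set the transcriptomic effects of the drug beside those of the mutants. FK228 and control libraries have a GFP code in their descriptions, of unexplained meaning. The sources used here do not give doses, times, vectors or which HDACs were mutated. Whether the libraries of a group are separate cultures is not said, so p-values measure the spread between libraries, which may be technical.

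Libraries held 23664436 to 26122987 counts. Levels within a gene are CPM, that is, counts relative to TMM-scaled library totals, and levels between genes are the deposited TPM, which corrects for transcript length. A gene is called at an adjusted p of 0.05 in edgeR's quasi-likelihood test over all tested genes. Fold changes are log2 ± the SE of the fit. Of 8 hepatocyte markers none was at 0 in a whole group, but albumin (Alb) averaged 0.0274 CPM in FK228 libraries, 0.256 in YF, 0.11 in FK228+YF and 0.0387 in control libraries. The hepatocyte factor Hnf4a was expressed, at 50.6, 121 and 28.7 CPM in FK228, YF and FK228+YF cells, against 177 CPM in control cells. The 8 markers summed to 591 to 691 CPM in FK228, 1120 to 1180 in YF and 534 to 566 in FK228+YF libraries, against 1100 to 1190 in control libraries. Of the 7 tested, 6 were lower with FK228, 3 lower and 2 higher with YF, and 7 lower with FK228+YF. Fgb did not reach the count filter's 0.393 CPM in all control libraries, and gave 1 of the higher calls with YF and 1 of the lower with FK228+YF. Of all tested genes, 33.2% were called higher and 35.5% lower with FK228, 18% and 14.6% with YF, and 38.8% and 38.6% with FK228+YF. The marker counts below stand against the same shares. Macrophage markers, mostly Cd68, summed to 23.7 to 29.7, 9.84 to 11.7 and 52 to 60.1 CPM in FK228, YF and FK228+YF libraries. Their control sums were 4.16 to 4.53 CPM. Adgre1 and Clec4f were at 0 in control, and Clec4f also with FK228. Adgre1 averaged at most 0.153 CPM in any group. Ptprc averaged 1.51, 1.16 and 0.679 CPM in FK228, YF and FK228+YF cells, against 1.15 CPM in control cells. Of the 4 macrophage markers tested, 3 were higher with FK228 and 2 each with YF and FK228+YF. Csf1r and Lyz2 did not reach the filter's 0.393 CPM in all control libraries. They gave 2 of the higher calls with FK228, 1 with YF and 1 with FK228+YF, and no support is drawn from these. Stellate cell markers, mostly Des, summed to 25.7 to 27.2 CPM in FK228, 10.8 to 16.4 in YF and 28.8 to 35 in FK228+YF libraries, against 6.62 to 9.05 in control libraries. Of the 2 tested, 1 was higher with FK228, 1 with YF and 2 with FK228+YF, and Lrat was at 0 in all groups but control. Acta2, 1 of the 2 higher with FK228+YF, did not reach the filter's level in all control libraries. Cholangiocyte markers, mostly Spp1, summed to 5420 to 5810, 5360 to 5580 and 4300 to 5120 CPM, against 4870 to 4940 in control libraries. Of the 4 tested, 3 were lower in each comparison, and 1 was higher with FK228 and 1 with YF. Among them Krt19 averaged 173, 284 and 107 CPM in FK228, YF and FK228+YF cells, against 607 CPM in control cells. Endothelial markers summed to at most 1.49 CPM in any library. The part of these markers in the results below was not tested. In bulk RNA, fewer cells of a type and less RNA per cell cannot be told apart. Among the members, control replicate 1 was the lowest control library for 31 of 41 genes, against 37.7% of all tested genes, and YF replicate 2 was the lowest YF library for 30 of 41, against 37.1%.

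**Figure D1:**
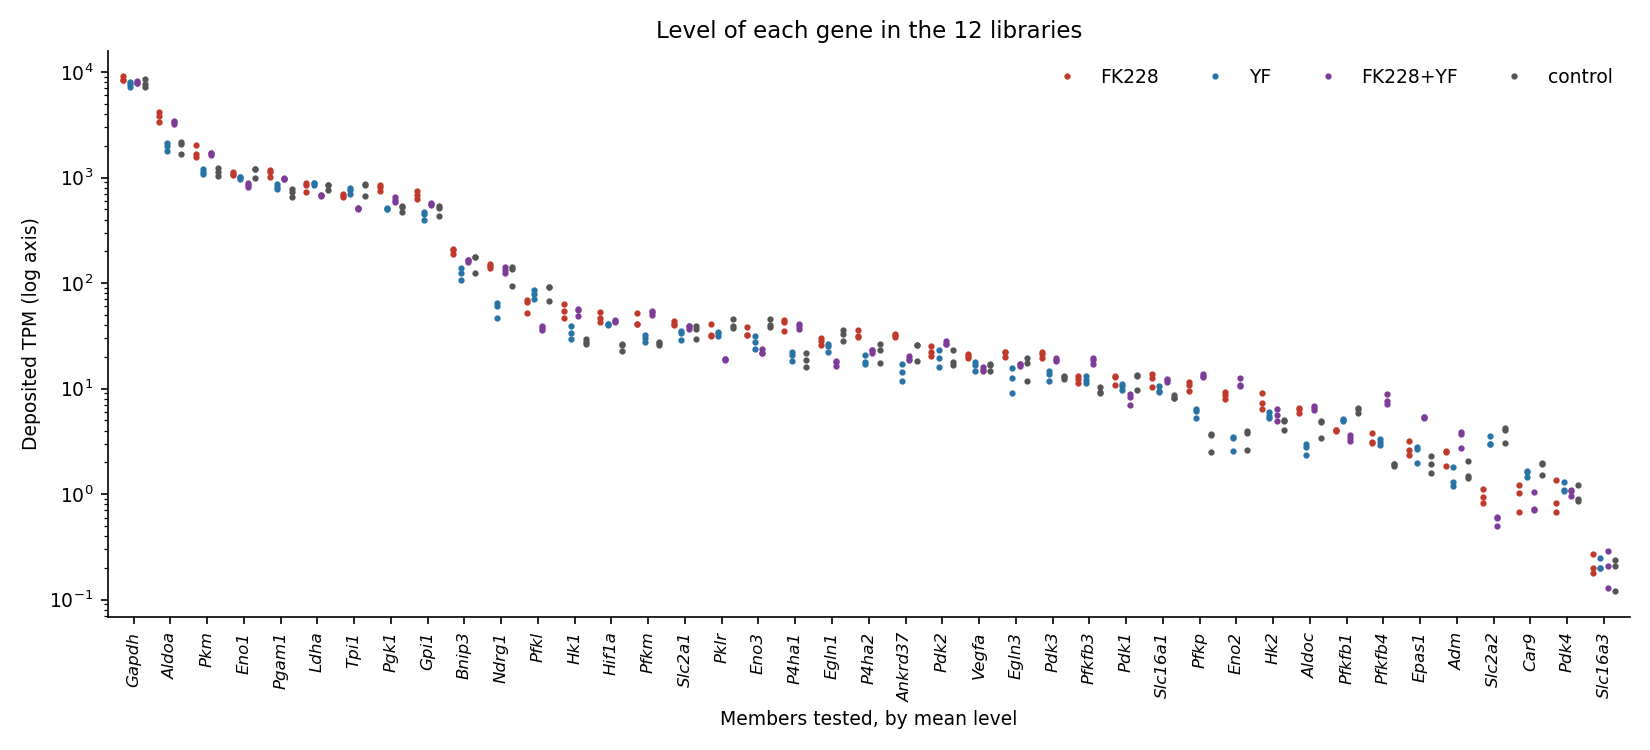
Deposited TPM (log axis) of the 41 tested genes in each of the 12 libraries, ordered by mean level over the groups. Each point is a library. Gapdh and Aldoa stood highest in every group, and Slc16a3 lowest in each.

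The common glycolytic enzymes were abundant in every group, and the liver pyruvate kinase, Pck1 and Fbp1 were far lower. In TPM, Gapdh was the most abundant, at 8640 ± 380 in FK228, 7640 ± 478 in YF, 8000 ± 129 in FK228+YF and 7840 ± 723 in control cells (mean ± SD, n = 3 each). The aldolase Aldoa followed in every group, at 3810 ± 397, 1970 ± 171 and 3350 ± 95.7 TPM in FK228, YF and FK228+YF cells, against 1970 ± 277 in control cells. Gpi1, Tpi1, Pgk1, Pgam1, Eno1, Pkm and Ldha each stood between 440.0 and 1750 TPM as a group mean. In control cells the neighbours Eno1, at 1130 ± 130, and Pkm, at 1130 ± 98.7 TPM, differed by less than their SDs, as did Tpi1, at 792 ± 110, and Ldha, at 821 ± 49.6. The liver pyruvate kinase Pklr reached 34.8 ± 5.23, 33.1 ± 1.42 and 18.9 ± 0.312 TPM in the FK228, YF and FK228+YF groups and 40.8 ± 4.42 in the control group. Pck1 and Fbp1, which act in glucose production, were barely counted. Pck1, which makes phosphoenolpyruvate from oxaloacetate, had 1, 0 and 1 counts summed over the FK228, YF and FK228+YF libraries and 0 in control. Fbp1, the fructose-1,6-bisphosphatase, had 5, 2 and 3 counts against 0. The lactate dehydrogenase subunit Ldhb had 5 summed counts with FK228, 19 with YF, 32 with both and 15 in control cells, and its ratio of FK228+YF to control was 2.28, with a 95% exact interval from 1.2 to 4.53 that covers counting error only. These 3 genes were not tested.

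Because HIF acts through a DNA core, the promoter letters of 6 members with contrasting behaviour are shown, read from RefSeq windows of GRCm38.p6 that run from 250 bases before to 50 bases after the start of transcription. Capitals mark the hypoxia response core, ACGTG or GCGTG, or its reverse complement, CACGT or CACGC, and cores may overlap. With FK228, P4ha1 had the largest rise among the targets and Pfkp among the glycolytic enzymes, Ankrd37 and Bnip3 were higher with FK228 and lower with YF, Car9 was the target that fell with FK228, and Slc2a2 had the largest fall of the 41 tested members.
P4ha1, chr10:59323046-59323345, + strand: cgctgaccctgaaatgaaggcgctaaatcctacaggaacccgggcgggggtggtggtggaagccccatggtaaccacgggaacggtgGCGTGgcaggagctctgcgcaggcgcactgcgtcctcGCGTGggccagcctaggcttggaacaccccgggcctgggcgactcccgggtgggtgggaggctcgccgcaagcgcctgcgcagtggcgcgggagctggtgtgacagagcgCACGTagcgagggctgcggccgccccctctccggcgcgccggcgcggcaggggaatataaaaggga
Pfkp, chr13:6648722-6649021, - strand: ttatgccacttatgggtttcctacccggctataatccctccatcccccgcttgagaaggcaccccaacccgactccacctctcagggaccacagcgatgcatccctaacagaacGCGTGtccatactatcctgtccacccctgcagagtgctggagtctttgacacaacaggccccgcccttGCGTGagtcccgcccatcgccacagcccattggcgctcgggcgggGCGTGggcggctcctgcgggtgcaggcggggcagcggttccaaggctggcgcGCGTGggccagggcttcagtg
Ankrd37, chr8:45999801-46000100, - strand: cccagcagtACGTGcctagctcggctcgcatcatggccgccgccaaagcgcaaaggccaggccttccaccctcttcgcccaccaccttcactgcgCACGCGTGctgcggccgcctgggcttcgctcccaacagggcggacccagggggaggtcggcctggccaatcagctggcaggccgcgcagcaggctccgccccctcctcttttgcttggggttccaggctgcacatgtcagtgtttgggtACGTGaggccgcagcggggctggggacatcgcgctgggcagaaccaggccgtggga
Bnip3, chr7:138909457-138909756, - strand: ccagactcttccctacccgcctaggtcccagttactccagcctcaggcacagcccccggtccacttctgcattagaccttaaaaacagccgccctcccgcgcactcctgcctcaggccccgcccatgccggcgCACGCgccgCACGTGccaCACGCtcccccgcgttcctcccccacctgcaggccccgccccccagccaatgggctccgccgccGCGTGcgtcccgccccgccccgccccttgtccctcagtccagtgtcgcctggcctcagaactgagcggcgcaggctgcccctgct
Car9, chr4:43506776-43507075, + strand: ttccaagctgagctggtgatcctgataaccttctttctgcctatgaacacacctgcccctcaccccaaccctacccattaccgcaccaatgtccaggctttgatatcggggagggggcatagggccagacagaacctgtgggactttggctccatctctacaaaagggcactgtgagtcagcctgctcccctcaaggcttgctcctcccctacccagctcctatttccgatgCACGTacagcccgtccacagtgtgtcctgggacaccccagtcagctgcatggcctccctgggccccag
Slc2a2, chr3:28697653-28697952, + strand: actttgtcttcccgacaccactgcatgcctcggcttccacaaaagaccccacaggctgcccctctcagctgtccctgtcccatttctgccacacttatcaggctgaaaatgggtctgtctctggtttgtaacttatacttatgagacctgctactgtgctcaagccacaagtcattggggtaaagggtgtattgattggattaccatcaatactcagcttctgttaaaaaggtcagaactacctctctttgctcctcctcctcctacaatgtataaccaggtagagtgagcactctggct
There were 3 cores in the P4ha1 window, 4 in Pfkp, 4 in Ankrd37, 5 in Bnip3, 1 in Car9 and 0 in Slc2a2. These 6 were picked for their behaviour, and whether the number of cores goes with direction was not tested. Among members not shown, Eno2 and Gpi1 rose with FK228 and had 0 cores. Ldha, uncalled with FK228, had 7 in 1 window and 2 in another, and Pfkl, lower with FK228, had 1. A core stood in 35 of the 43 members with a window, which is 81.4%, and in 7 of 7 hypoxia targets with a window. It also stood in 43.8% of all 32851 windows and in 46.7% of 27025 genes with a window, so the short core is common. A match is a description of letters, and its absence says only that these letters are not in this window. Epas1 and Ndrg1 had no entry.

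FK228 raised most of these genes, and the combination raised 11 of 17 enzymes of the glycolytic steps while leaving 5 of 8 hypoxia targets uncalled. With YF fewer genes were called, and the balance of higher and lower calls changed with the control libraries used. With FK228, 27 of 41 tested genes were higher and 6 lower than in control cells, which is 80.5%, against 68.8% of all tested genes called either way and 33.2% called higher. Their median log2 fold change was 0.49, and that of all tested genes -0.02. With YF, 5 were higher and 12 lower (41.5%, against 32.6% of all genes, with 18% of all genes called higher and 14.6% lower), with a median of -0.11 against 0.01. With FK228+YF, 20 were higher and 11 lower (75.6%, against 77.4% of all genes, with 38.8% of all genes called higher and 38.6% lower), with a median of 0.19 against 0.01. The share of members called with FK228+YF lay below that of all genes. The libraries of the 2 groups did not overlap for 31 genes with FK228 (69.6% of all genes), 15 with YF (44%) and 31 with FK228+YF (78.7%). The 3 comparisons share the control libraries, so a low or high control library moves all of them. Without control replicate 1, FK228 had 24 higher and 8 lower, and YF had 4 higher and 18 lower. With YF, 5 were higher and 7 lower without control replicate 2, and 6 higher and 6 lower without control replicate 3. A tested gene need not have reached the filter's 0.393 CPM in control, and Slc16a3 was the 1 member that did not in all 3 control libraries.

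**Figure D2:**
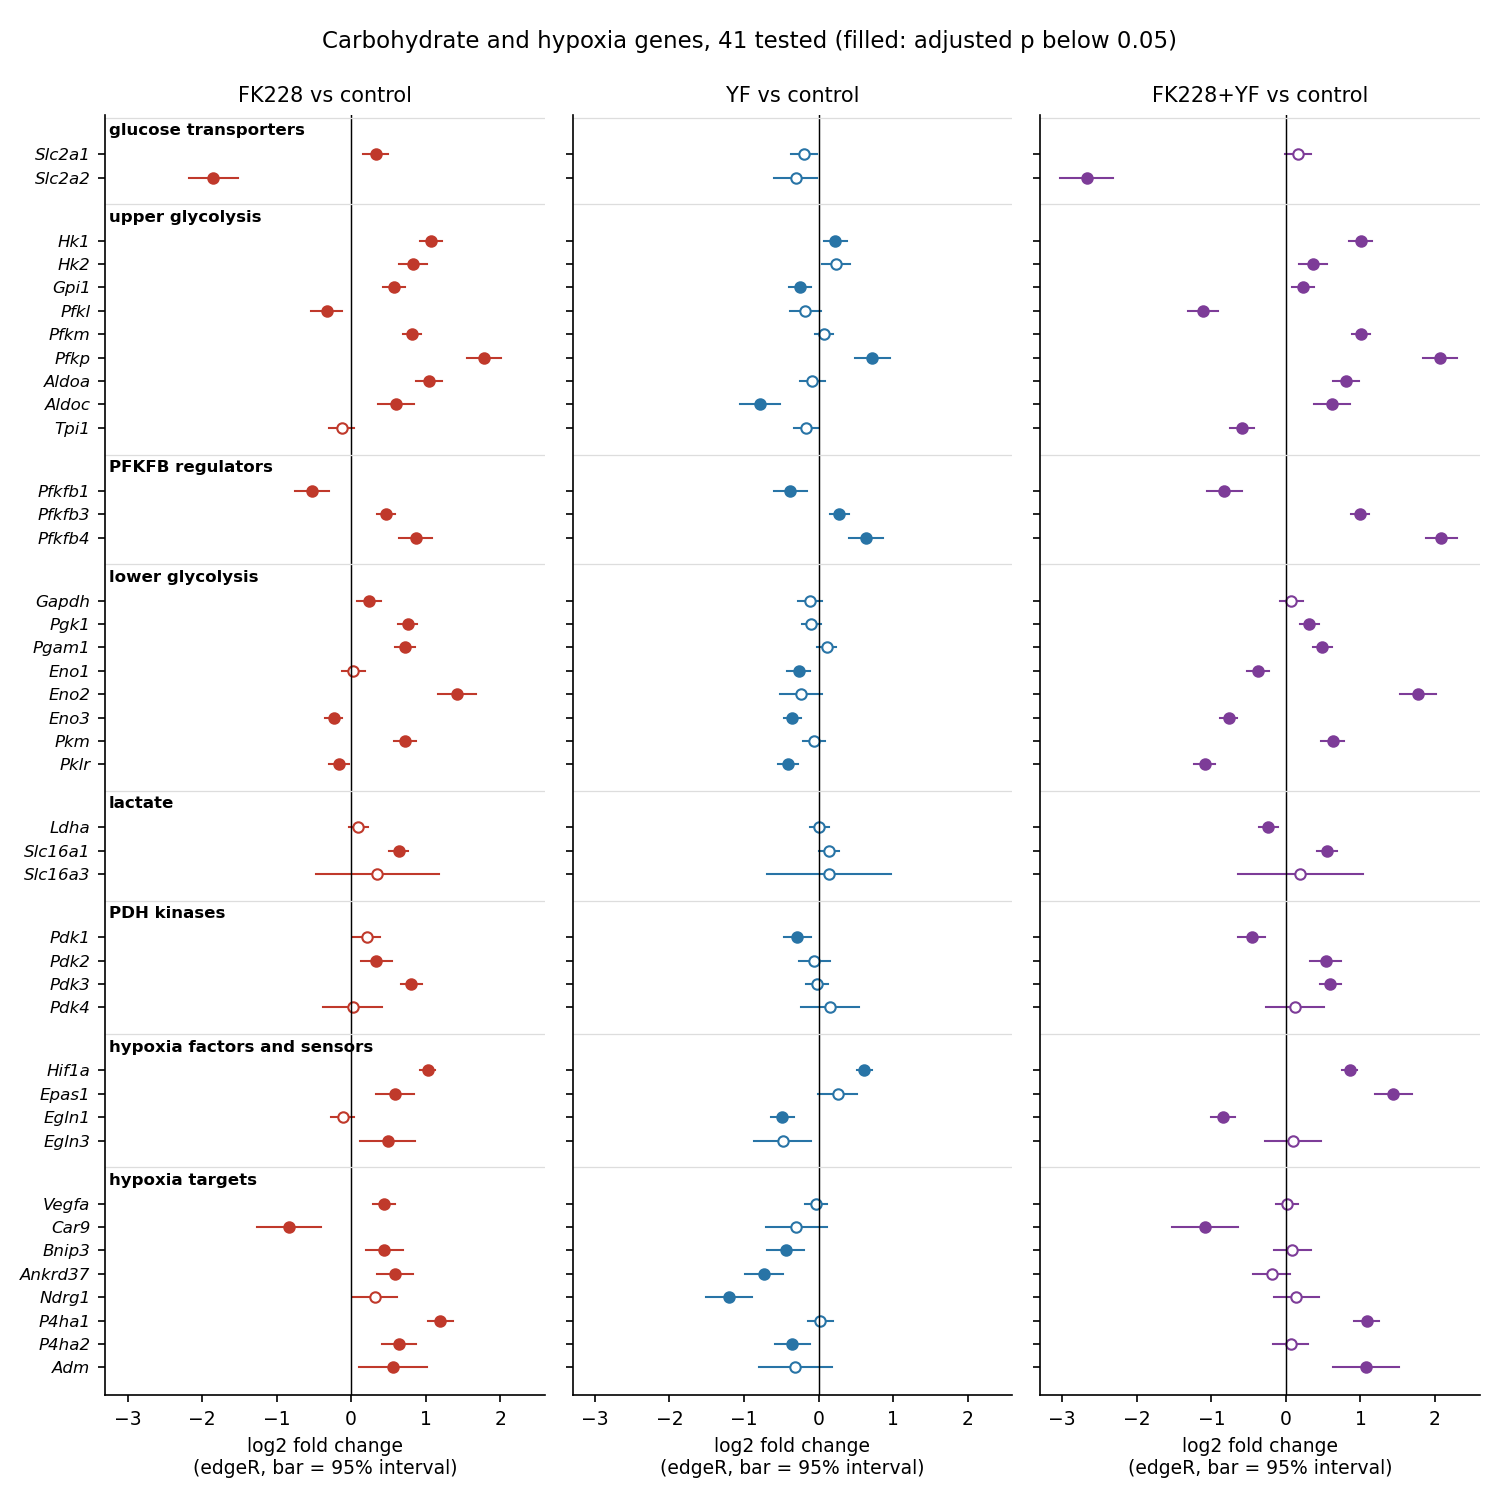
Log2 fold changes against control of the 41 tested genes, by role, for FK228 (left), YF (middle) and FK228+YF (right). Points are edgeR estimates, bars their 95% intervals, and filled points passed an adjusted p of 0.05, with 33 filled for FK228, 17 for YF and 31 for FK228+YF.

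Glucose entry differed by transporter. Slc2a2, which encodes the low-affinity liver transporter GLUT2, had 2.24, 2.51 and 1.695 CPM in the FK228 libraries, 5.73, 7.21 and 5.87 CPM in the YF libraries, 1.08, 1.25 and 1.301 CPM in the FK228+YF libraries, and 8.17, 8.55 and 6.57 CPM in the control libraries. Every FK228 and FK228+YF library lay below every control library, while the YF and control ranges overlapped. Slc2a2 fell 3.6-fold with FK228 (log2 -1.85 ± 0.17, adjusted p = 3.54e-09) and 6.38-fold with FK228+YF (log2 -2.67 ± 0.18, adjusted p = 2.06e-11), and its uncalled estimate with YF was -0.31 ± 0.15 (adjusted p = 0.111). Slc2a1, which encodes the widespread transporter GLUT1, had 97.1, 89.5 and 89.4 CPM in the FK228 libraries, 67.7, 58.9 and 65.8 CPM in the YF libraries, 79.5, 82.4 and 84.1 CPM in the FK228+YF libraries, and 60.7, 75.3 and 84.02 CPM in the control libraries. It rose with FK228 by log2 0.33 ± 0.09, adjusted p = 0.00274, and by 0.21 without control replicate 1. Its estimate was -0.19 ± 0.09 with YF and 0.16 ± 0.09 with FK228+YF, neither called. In TPM, Slc2a2 made up 2.28 ± 0.433% of the 2 transporters' sum in FK228, 8.97 ± 1.69% in YF and 1.46 ± 0.0948% in FK228+YF cells, against 9.78 ± 2.34% in control cells.

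Most enzymes of the upper steps rose with FK228 and with FK228+YF, 7 of 9 in each, against 33.2% and 38.8% of all tested genes called higher, and the liver phosphofructokinase fell in both. Hexokinases phosphorylate glucose on entry. The main form Hk1 had 171, 187 and 197 CPM in the FK228 libraries, 115, 91.8 and 101 CPM in the YF libraries, 164, 181 and 184 CPM in the FK228+YF libraries, and 81.3, 90.9 and 91.8 CPM in the control libraries, and the FK228 and FK228+YF ranges overlapped each other and lay above all control libraries. It rose by 1.07 ± 0.08 with FK228 and 1.00 ± 0.08 with FK228+YF (adjusted p = 2.84e-10 and 3.69e-10), and by 0.23 ± 0.08 with YF (adjusted p = 0.0331). The YF call of Hk1 was lost without FK228 replicate 2, YF replicates 1 or 3, FK228+YF replicate 2 or control replicate 1 or in a fit of the compared groups alone (adjusted p from 0.0502 to 0.207). Hk2, the insulin- and HIF-responsive form, rose by 0.83 ± 0.10 with FK228 and by 0.37 ± 0.10 with FK228+YF (adjusted p = 1.76e-07 and 0.00199), and had an uncalled estimate of 0.23 ± 0.10 with YF (adjusted p = 0.0747). Gpi1, which turns glucose 6-phosphate into fructose 6-phosphate, rose by 0.57 ± 0.08 with FK228 and 0.23 ± 0.08 with FK228+YF and fell by 0.25 ± 0.08 with YF (adjusted p = 1.05e-06, 0.00997 and 0.0137). The YF call was lost without YF replicate 2 or control replicates 2 or 3 (adjusted p from 0.0698 to 0.0913), and the FK228+YF call without control replicate 1 (adjusted p = 0.098).

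The 3 genes of phosphofructokinase, the committing step, moved in different directions. Pfkp, the platelet form, had 29.6, 31.2 and 31.3 CPM in the FK228 libraries, 15.5, 13.3 and 15.3 CPM in the YF libraries, 38.5, 35.9 and 37.6 CPM in the FK228+YF libraries, and 6.51, 10.1 and 10.2 CPM in the control libraries. All libraries of the 3 other groups lay above every control library, and it rose 3.44-fold with FK228, 1.65-fold with YF and 4.19-fold with FK228+YF (log2 1.78 ± 0.12, 0.72 ± 0.12 and 2.07 ± 0.12; adjusted p = 4.19e-11, 0.000126 and 1.65e-12). The muscle form Pfkm had 110.1, 104 and 119.9 CPM in the FK228 libraries, 68.9, 63.4 and 65.9 CPM in the YF libraries, 124, 129.6 and 128 CPM in the FK228+YF libraries, and 60.04, 63.5 and 65.6 CPM in the control libraries. It rose with FK228 (0.82 ± 0.06, adjusted p = 1.61e-10) and FK228+YF (1.01 ± 0.06, adjusted p = 2.24e-12), and the YF libraries overlapped with control. The liver form Pfkl had 187, 222 and 209 CPM in the FK228 libraries, 246, 214 and 228 CPM in the YF libraries, 123, 123 and 114 CPM in the FK228+YF libraries, and 208, 279 and 291 CPM in the control libraries. The FK228+YF libraries lay below the control range, and the FK228 and YF libraries overlapped it. Pfkl fell 2.16-fold with FK228+YF (log2 -1.11 ± 0.11, adjusted p = 1.41e-07) and by 0.33 ± 0.10 with FK228 (adjusted p = 0.0112), and the FK228 call was lost without FK228 replicate 1 or control replicates 2 or 3 (adjusted p from 0.051 to 0.0766). The summed TPM of the 3 forms was 118 in FK228, 114 in YF, 104 in FK228+YF and 114 in control cells. Within that sum Pfkl held 53.1 ± 2.72%, 68.7 ± 0.52% and 36.3 ± 1.23% in FK228, YF and FK228+YF cells, against 73.3 ± 2.41% in control cells, and Pfkm was the leading form in FK228+YF cells, at 50.9 ± 1.07% against 23.8 ± 2.66% in control. Pfkp held 9.06 ± 0.266%, 5.16 ± 0.132% and 12.8 ± 0.655% against 2.87 ± 0.251%. Pfkm overlaps Senp1 and Pfkp overlaps Pitrm1 in the annotation, and whether strand was used in counting is not given in the sources used here.

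The PFKFB genes, whose enzymes set the level of fructose 2,6-bisphosphate, the strongest activator of phosphofructokinase, moved apart in the same way in all 3 comparisons. Pfkfb1, the liver form, had 6.98, 6.43 and 5.79 CPM in the FK228 libraries, 6.72, 7.28 and 7.16 CPM in the YF libraries, 4.795, 5.45 and 5.25 CPM in the FK228+YF libraries, and 9.37, 8.32 and 9.84 CPM in the control libraries, with every control library above all others. It fell by 0.52 ± 0.12 with FK228, 0.38 ± 0.11 with YF and 0.83 ± 0.12 with FK228+YF (adjusted p = 0.00049, 0.0142 and 1.95e-06), and the YF call was lost without YF replicate 1 or control replicate 3 (adjusted p from 0.057 to 0.0691). Pfkfb4, a form induced by hypoxia, had 9.43, 8.699 and 10.1 CPM in the FK228 libraries, 8.46, 8.08 and 7.47 CPM in the YF libraries, 19.9, 24.4 and 21.4 CPM in the FK228+YF libraries, and 5.07, 4.93 and 5.44 CPM in the control libraries, with the control libraries lowest and the FK228+YF libraries highest. It rose 1.82-fold with FK228, 1.55-fold with YF and 4.24-fold with FK228+YF (adjusted p = 9.64e-07, 0.000254 and 1.94e-13). Pfkfb3, a form with high kinase activity, rose by 0.47 ± 0.06, 0.28 ± 0.06 and 0.99 ± 0.06 with FK228, YF and FK228+YF (adjusted p = 1.17e-06, 0.00182 and 4.19e-12). In TPM, Pfkfb1 held 20.5 ± 1.59%, 24.9 ± 1.58% and 11.5 ± 0.151% of the family in FK228, YF and FK228+YF cells, against 35.3 ± 2.72% in control cells. Pfkfb1 overlaps Apex2.

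**Figure D3:**
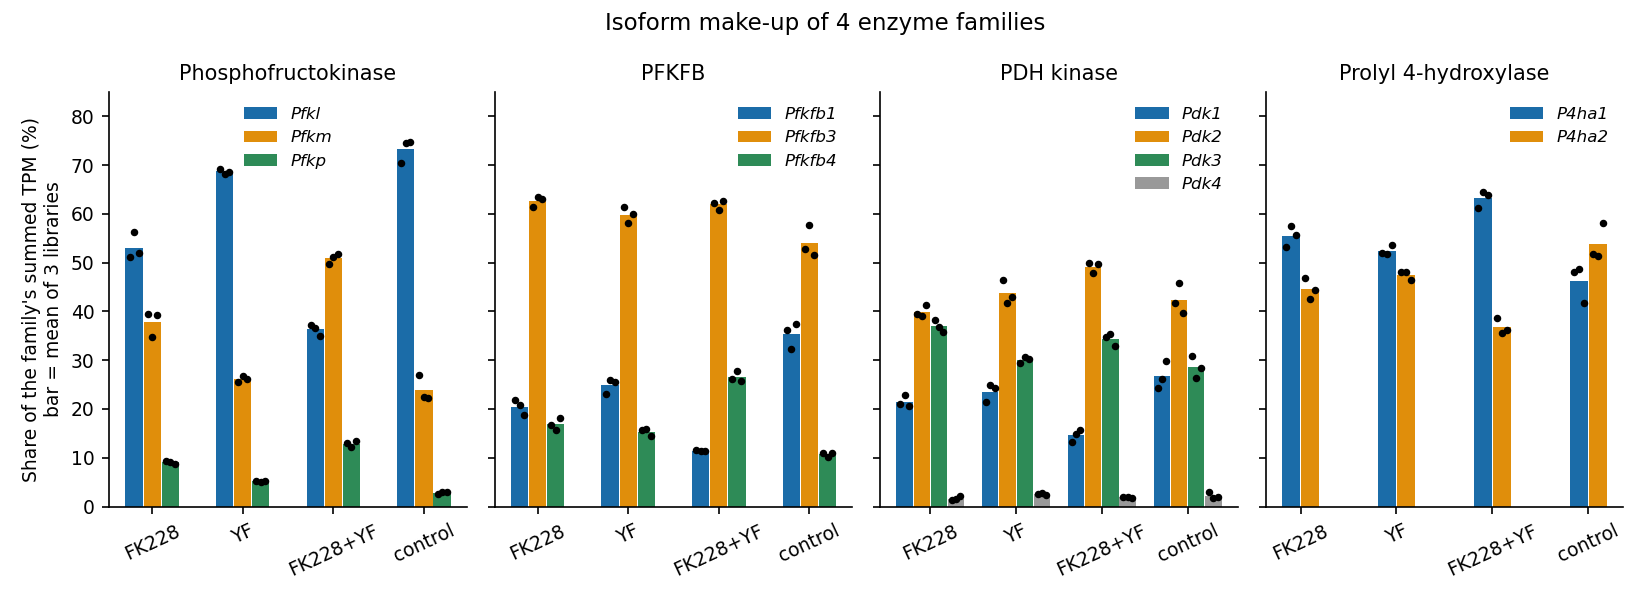
Share of each family's summed TPM (percent) held by each member, for phosphofructokinase, PFKFB, PDH kinase and prolyl 4-hydroxylase. Bars are means of 3 libraries, dots the libraries, and groups run FK228, YF, FK228+YF and control. Pfkl held 36.3% in FK228+YF cells against 73.3% in control cells.

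Aldolase splits the hexose bisphosphate. Aldoa had 4517, 4801 and 4756 CPM in the FK228 libraries, 2270, 2012 and 2143 CPM in the YF libraries, 4157, 3929 and 3842 CPM in the FK228+YF libraries, and 1878, 2473 and 2455 CPM in the control libraries. It rose 2.07-fold with FK228 and 1.75-fold with FK228+YF (log2 1.05 ± 0.09, adjusted p = 1.26e-09, and 0.81 ± 0.09, adjusted p = 3.47e-08), with no overlap with control, and had an uncalled estimate of -0.08 ± 0.09 with YF. Aldoc, the brain form, had 15.9, 13.8 and 13.9 CPM in the FK228 libraries, 5.97, 4.99 and 5.75 CPM in the YF libraries, 15.1, 13.7 and 15.4 CPM in the FK228+YF libraries, and 7.32, 10.5 and 10.9 CPM in the control libraries. Its YF libraries lay below every control library, whereas those of Aldoa overlapped the control range. It rose with FK228 (0.60 ± 0.13, adjusted p = 0.000221) and FK228+YF (0.62 ± 0.13, adjusted p = 0.000122) and fell 1.72-fold with YF (log2 -0.78 ± 0.14, adjusted p = 0.000158). Tpi1, which interconverts the triose phosphates, fell with FK228+YF (-0.59 ± 0.08, adjusted p = 1.82e-06) and had an uncalled estimate of -0.13 ± 0.08 with FK228 and -0.17 ± 0.08 with YF. Tpi1 overlaps Spsb2.

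In the lower steps FK228 raised 5 of 8 genes and lowered 2, and FK228+YF raised 4 and lowered 3, while YF raised 0 and lowered 3. The shares called were 87.5% with FK228, 87.5% with FK228+YF and 37.5% with YF, against 68.8%, 77.4% and 32.6% of all tested genes. Pgk1, which makes the first ATP of the chain, had 1235, 1262 and 1201 CPM in the FK228 libraries, 677, 694 and 672 CPM in the YF libraries, 916, 941 and 864 CPM in the FK228+YF libraries, and 661, 751 and 773 CPM in the control libraries. The FK228 and FK228+YF libraries lay above the control range, and the YF libraries overlapped it. It rose by 0.76 ± 0.07 with FK228 and 0.32 ± 0.07 with FK228+YF (adjusted p = 1.63e-09 and 0.000163). The mutase gene Pgam1 rose by 0.72 ± 0.07 and 0.49 ± 0.07 in the same comparisons (adjusted p = 5.22e-09 and 9.53e-07). Gapdh, often used as a reference transcript, rose by 0.24 ± 0.08 with FK228 (adjusted p = 0.0112), a call lost without control replicate 1 (adjusted p = 0.0766), and had an uncalled estimate of -0.11 ± 0.08 with YF and 0.07 ± 0.08 with FK228+YF.

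The 3 enolase genes, which make phosphoenolpyruvate, moved in different directions. Eno2, the neuronal form, had 20, 19.6 and 19.1 CPM in the FK228 libraries, 6.64, 5.38 and 6.59 CPM in the YF libraries, 24.7, 22.9 and 27.2 CPM in the FK228+YF libraries, and 5.38, 8.01 and 8.52 CPM in the control libraries. It rose 2.68-fold with FK228 and 3.41-fold with FK228+YF (log2 1.42 ± 0.13, adjusted p = 4.09e-09, and 1.77 ± 0.13, adjusted p = 5.14e-11), and the YF libraries overlapped with control. Of 5 neuron markers 3 were higher with FK228, 2 with YF and 4 with FK228+YF, against 33.2%, 18% and 38.8% of all tested genes. Rbfox3 and Tubb3 did not reach the filter's level in all control libraries, and gave 1 of the higher calls with FK228+YF. The 5 markers summed to 39.8 to 44.5 CPM in FK228, 17 to 22.1 in YF and 83.5 to 92.1 in FK228+YF libraries. Control libraries summed to 8.91 to 10.2 CPM, and none of the markers was at 0 in a whole group. The defining marker Rbfox3 had 0.6, 0.424 and 0.508 CPM in FK228, YF and FK228+YF cells, against 0.374 CPM in control cells, and was not called. Their part in the result was not tested. Eno3, the muscle form, had 67.4, 61.3 and 64.7 CPM in the FK228 libraries, 62.5, 55.5 and 60.2 CPM in the YF libraries, 44.5, 44.6 and 44.4 CPM in the FK228+YF libraries, and 77.9, 73.1 and 76.7 CPM in the control libraries. Its control libraries all lay above the others, and it fell by 0.24 ± 0.06 with FK228, 0.35 ± 0.06 with YF and 0.77 ± 0.06 with FK228+YF (adjusted p = 0.00135, 1e-04 and 1.63e-10). Muscle markers summed to at most 0.687 CPM in any library. Eno1, which held 96.2% of enolase TPM in FK228 and FK228+YF cells, 97% in YF and 96.2% in control cells, fell with YF (-0.27 ± 0.08, adjusted p = 0.0112) and FK228+YF (-0.38 ± 0.08, adjusted p = 0.000171), and had an uncalled estimate of 0.03 ± 0.08 with FK228. The YF call was lost without control replicates 2 or 3 (adjusted p from 0.0527 to 0.0898). Eno1 may share reads with the near-identical gene Eno1b, and with both counted together the estimates were 0.03 with FK228, -0.26 with YF and -0.39 with FK228+YF. Eno3 overlaps Pfn1.

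Pyruvate kinase closes the chain. Pkm, the form of most tissues, had 3518, 3531 and 3880 CPM in the FK228 libraries, 2173, 2064 and 2089 CPM in the YF libraries, 3379, 3396 and 3418 CPM in the FK228+YF libraries, and 1967, 2173 and 2467 CPM in the control libraries. The FK228 and FK228+YF libraries were all higher than the control libraries, which the YF libraries overlapped. It rose by 0.73 ± 0.08 with FK228 and 0.63 ± 0.08 with FK228+YF (adjusted p = 3.77e-08 and 1.96e-07). The gene counts do not separate its M1 and M2 splice forms. Pklr, the liver and red cell form, had 86.3, 82.6 and 94.6 CPM in the FK228 libraries, 74.4, 71.9 and 75.3 CPM in the YF libraries, 47.4, 44.7 and 46.4 CPM in the FK228+YF libraries, and 88.4, 109 and 97.4 CPM in the control libraries. The FK228+YF libraries lay lowest, and the FK228 libraries overlapped with control. Pklr fell 2.13-fold with FK228+YF (log2 -1.09 ± 0.07, adjusted p = 8e-12) and by 0.41 ± 0.07 with YF (adjusted p = 0.000103). With FK228 its estimate was -0.16 ± 0.07 (adjusted p = 0.0408), and that call was lost without FK228 replicates 1 or 2, FK228+YF replicate 2 or control replicates 2 or 3, with RLE scaling, with the filter of 5 CPM, in DESeq2, in a fit of the compared groups alone or with the replicate number as a block (adjusted p from 0.0535 to 0.281). In TPM, Pklr held 1.94 ± 0.0609% of pyruvate kinase in FK228, 2.82 ± 0.0616% in YF and 1.11 ± 0.0402% in FK228+YF cells, against 3.51 ± 0.397% in control cells. Pklr overlaps Hcn3.

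Pyruvate is either reduced to lactate or sent to the mitochondria, where PDH kinases block its entry into the citric acid cycle. Ldha, the lactate dehydrogenase subunit that is a HIF target, fell with FK228+YF (-0.24 ± 0.07, adjusted p = 0.00241) and had an uncalled estimate of 0.10 ± 0.07 with FK228 and 0.01 ± 0.07 with YF. Slc16a1, the lactate carrier MCT1, rose by 0.64 ± 0.07 with FK228 and 0.55 ± 0.07 with FK228+YF (adjusted p = 4.24e-08 and 2.15e-07) and had an uncalled estimate of 0.14 ± 0.07 with YF. The hypoxia-inducible carrier gene Slc16a3 held 34, 31 and 30 summed counts in the FK228, YF and FK228+YF groups and 28 in control, and was not called; it overlaps Csnk1d. Among PDH kinases, Pdk3 rose by 0.81 ± 0.07 with FK228 and 0.60 ± 0.07 with FK228+YF, and Pdk2 by 0.34 ± 0.11 and 0.53 ± 0.10 (adjusted p = 2.87e-09, 1.88e-07, 0.00861 and 0.000165). Pdk1, the form under HIF-1 control, had 46.7, 51.9 and 47.9 CPM in the FK228 libraries, 34.9, 33.9 and 35.5 CPM in the YF libraries, 27.98, 31.6 and 32.7 CPM in the FK228+YF libraries, and 34.4, 45.8 and 46.9 CPM in the control libraries. The FK228+YF libraries lay below the control range, which the FK228 and YF libraries overlapped. It fell by 0.46 ± 0.10 with FK228+YF (adjusted p = 0.000195) and by 0.28 ± 0.09 with YF (adjusted p = 0.0251), and the YF call was lost without YF replicates 1, 2 or 3 or control replicates 2 or 3 or in a fit of the compared groups alone (adjusted p from 0.0533 to 0.142). With FK228 its estimate was 0.21 ± 0.09 (adjusted p = 0.0538), and it was called with RLE scaling, no count filter, the filter of 5 CPM, DESeq2, limma-voom or the replicate block (adjusted p from 0.0265 to 0.0429). Pdk4, the form induced by fasting, was not called in any comparison with control.

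Of the 4 genes that make and sense HIF, both alpha subunits rose with FK228 and with FK228+YF, and Egln1, the main sensor, fell with YF and FK228+YF. Hif1a encodes HIF-1 alpha, whose protein is governed mainly by its stability and was not measured. It had 187, 191 and 200 CPM in the FK228 libraries, 143, 147 and 144 CPM in the YF libraries, 171, 170 and 172 CPM in the FK228+YF libraries, and 96.2, 97.1 and 90.7 CPM in the control libraries. All libraries of the other groups lay above the control libraries. Hif1a rose 2.03-fold with FK228, 1.53-fold with YF and 1.81-fold with FK228+YF (log2 1.03 ± 0.05, 0.61 ± 0.05 and 0.85 ± 0.05; adjusted p = 3.34e-13, 1.49e-08 and 2.65e-12). Epas1, which encodes HIF-2 alpha, had 12.1, 12.8 and 14.2 CPM in the FK228 libraries, 11.2, 8.58 and 11.4 CPM in the YF libraries, 22.98, 23.3 and 24.5 CPM in the FK228+YF libraries, and 7.05, 8.4 and 10.6 CPM in the control libraries. The FK228+YF libraries stood highest, the FK228 libraries next, and the YF libraries overlapped with control. It rose by 0.58 ± 0.13 with FK228 and 1.44 ± 0.13 with FK228+YF (adjusted p = 0.000493 and 1.33e-09), and had an uncalled estimate of 0.26 ± 0.13 with YF. Egln1, the prolyl hydroxylase PHD2, had 85.7, 89.1 and 86.3 CPM in the FK228 libraries, 70.5, 62.9 and 68.4 CPM in the YF libraries, 49.95, 53.9 and 53.2 CPM in the FK228+YF libraries, and 80.2, 94.1 and 109 CPM in the control libraries. YF and FK228+YF libraries lay below the control range, and FK228 libraries overlapped it. It fell by 0.49 ± 0.08 with YF and 0.85 ± 0.08 with FK228+YF (adjusted p = 0.000112 and 9.15e-09), and had an uncalled estimate of -0.12 ± 0.08 with FK228. Egln3, the hydroxylase PHD3 and itself a HIF target, rose with FK228 (0.49 ± 0.19, adjusted p = 0.0389), a call lost without FK228 replicates 1, 2 or 3, YF replicate 3, FK228+YF replicates 1, 2 or 3 or control replicates 1 or 2, with no count filter or with the replicate number as a block (adjusted p from 0.0504 to 0.0872). Its uncalled estimates were -0.48 ± 0.20 with YF and 0.10 ± 0.19 with FK228+YF.

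The 8 hypoxia targets did not move as 1 block. With FK228 6 were higher and 1 lower; with YF 0 were higher and 4 lower; with FK228+YF 2 were higher, 1 lower and 5 uncalled. The shares called were 87.5%, 50% and 37.5% with FK228, YF and FK228+YF, against 68.8%, 32.6% and 77.4% of all tested genes. With FK228 75% were called higher, against 33.2% of all genes, and with YF 50% were called lower, against 14.6%. P4ha1, a subunit of the collagen prolyl 4-hydroxylase, had 135, 153 and 148 CPM in the FK228 libraries, 69.1, 59.8 and 65.01 CPM in the YF libraries, 129, 133 and 141 CPM in the FK228+YF libraries, and 53.3, 71.8 and 65.3 CPM in the control libraries. The FK228 and FK228+YF libraries lay above all YF and control libraries, which overlapped. It rose 2.29-fold with FK228 and 2.12-fold with FK228+YF (log2 1.197 ± 0.09, adjusted p = 5.36e-10, and 1.08 ± 0.09, adjusted p = 1.14e-09). Its paralogue P4ha2 rose with FK228 (0.65 ± 0.12, adjusted p = 0.000169), had an uncalled estimate of 0.06 ± 0.12 with FK228+YF, and fell with YF (-0.35 ± 0.12, adjusted p = 0.0368), a call lost without FK228 replicate 3, YF replicates 2 or 3, FK228+YF replicates 1 or 3 or control replicates 2 or 3, with no count filter, in limma-voom, in a fit of the compared groups alone or with the replicate number as a block (adjusted p from 0.0506 to 0.179).

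Ndrg1, a growth-arrest gene induced by hypoxia, had 378, 366 and 352 CPM in the FK228 libraries, 141, 106 and 135 CPM in the YF libraries, 308, 341 and 319 CPM in the FK228+YF libraries, and 217, 331 and 331 CPM in the control libraries. Every YF library lay below every other library. It fell 2.3-fold with YF (log2 -1.203 ± 0.16, adjusted p = 0.000217). Its estimate was 0.32 ± 0.15 with FK228 (adjusted p = 0.0875) and 0.14 ± 0.15 with FK228+YF, neither called. The FK228 libraries lay above the control range, and the FK228 rise was called in DESeq2 and without control replicate 3 (adjusted p = 0.046 in each). Ankrd37, an ankyrin repeat gene and HIF-1 target, had 24.2, 23.2 and 20.6 CPM in the FK228 libraries, 10.4, 7.62 and 9.14 CPM in the YF libraries, 12.9, 13.9 and 12.8 CPM in the FK228+YF libraries, and 11.9, 16.5 and 16.9 CPM in the control libraries. It rose with FK228 (0.59 ± 0.12, adjusted p = 0.000235) and fell with YF (-0.73 ± 0.13, adjusted p = 0.000223), while the FK228+YF libraries overlapped with control (-0.19 ± 0.13). Bnip3, a mitophagy gene, had 295, 313 and 275 CPM in the FK228 libraries, 175, 141 and 161 CPM in the YF libraries, 235, 229 and 223 CPM in the FK228+YF libraries, and 166, 236 and 247 CPM in the control libraries. The FK228 libraries were the highest. It rose with FK228 (0.44 ± 0.13, adjusted p = 0.00838), by 0.28 without control replicate 1, and fell with YF (-0.44 ± 0.13, adjusted p = 0.0201), although the YF and control ranges overlapped. The YF call of Bnip3 was lost without YF replicates 2 or 3 or control replicates 2 or 3, with no count filter or in a fit of the compared groups alone (adjusted p from 0.0508 to 0.0892). Its uncalled estimate with FK228+YF was 0.08 ± 0.13. Ankrd37 overlaps Ufsp2.

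Vegfa, the vessel growth factor, had 62.1, 55.3 and 54.1 CPM in the FK228 libraries, 43.6, 37.9 and 41.8 CPM in the YF libraries, 41.9, 43.5 and 42.0 CPM in the FK228+YF libraries, and 37.3, 43.2 and 45.4 CPM in the control libraries. The FK228 libraries lay above all others. It rose with FK228 (0.45 ± 0.08, adjusted p = 2.49e-05) and had an uncalled estimate of -0.03 ± 0.08 with YF and 0.02 ± 0.08 with FK228+YF. Adm, the peptide hormone adrenomedullin, rose with FK228+YF (1.08 ± 0.23, adjusted p = 0.000187) and with FK228 (0.57 ± 0.23, adjusted p = 0.0367), the FK228 call being lost without FK228 replicates 1 or 2 or control replicates 1 or 2 or with the replicate number as a block (adjusted p from 0.0525 to 0.132). Car9, a carbonic anhydrase and HIF-1 target, had 1.18, 1.94 and 1.53 CPM in the FK228 libraries, 2.02, 2.402 and 2.32 CPM in the YF libraries, 1.17, 1.62 and 1.09 CPM in the FK228+YF libraries, and 2.94, 2.93 and 2.41 CPM in the control libraries. Unlike the 6 targets that rose with FK228, it lay lower there, with all FK228, YF and FK228+YF libraries below the control range. It fell 1.78-fold with FK228 and 2.13-fold with FK228+YF (log2 -0.83 ± 0.22, adjusted p = 0.00217, and -1.09 ± 0.23, adjusted p = 0.000167). With YF Car9 was not called, and its highest YF library, at 2.402 CPM, lay just below the lowest control library, at 2.411 CPM. With each library left out, the YF estimate ran from -0.384 to -0.223, and 0 of 12 such fits called it. Car9 overlaps Arhgef39 and Tpm2.

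**Figure D4:**
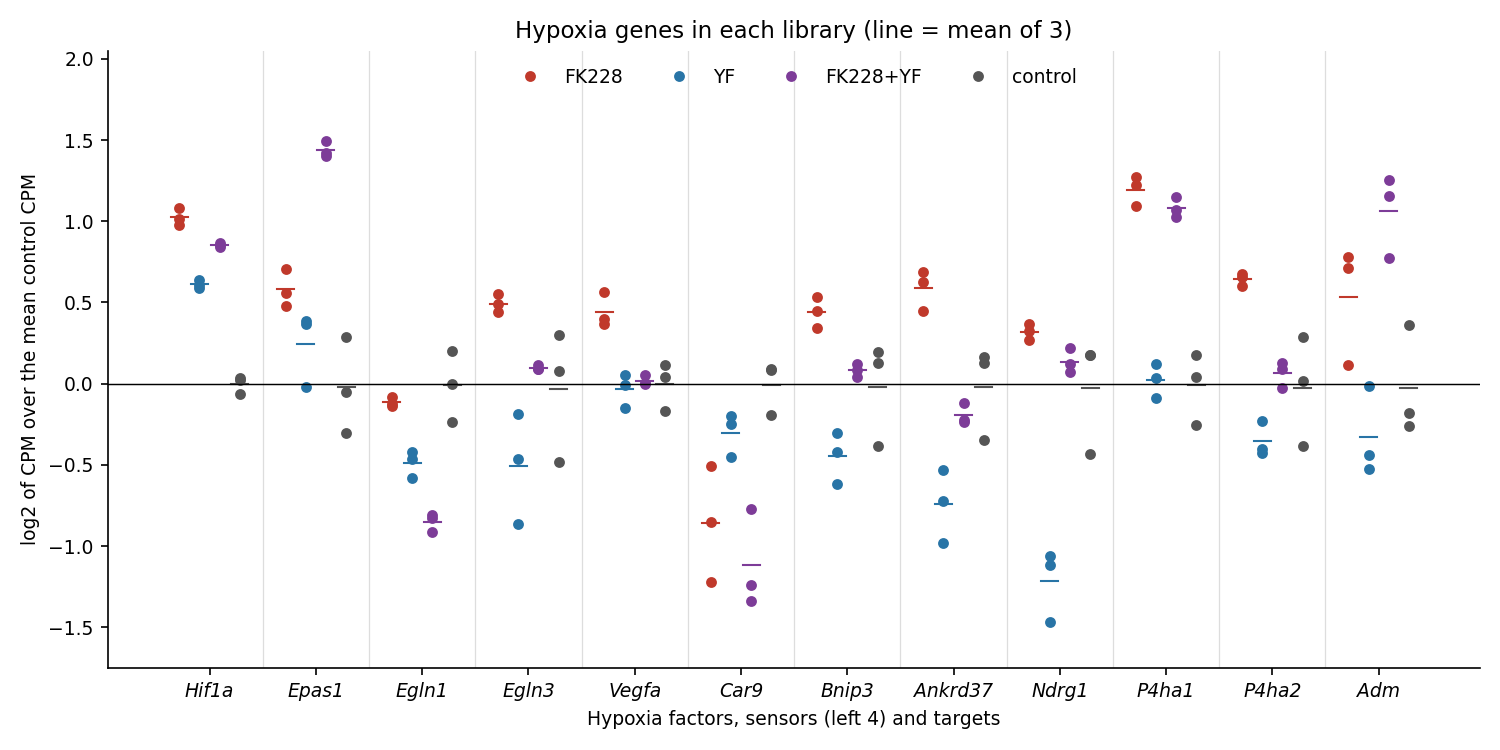
Log2 of CPM over the mean control CPM for the 4 hypoxia factors and sensors and the 8 targets, each point a library and each line the mean of 3, in the order FK228, YF, FK228+YF and control. Ndrg1 lies lowest in the YF libraries, at a mean log2 fold change of -1.203 in the test, and Epas1 highest in FK228+YF, at 1.44.

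Set side by side, the enzymes and the hypoxia genes had different counts in the combination. Of the 17 enzymes of the 10 glycolytic steps, 12 were higher and 3 lower with FK228, 2 and 5 with YF, and 11 and 5 with FK228+YF, with median log2 fold changes of 0.72, -0.11 and 0.37. Of the 12 hypoxia factors, sensors and targets, 9 were higher and 1 lower with FK228, 1 and 5 with YF, and 4 and 2 with FK228+YF, with medians of 0.53, -0.33 and 0.09. With FK228+YF the shares called higher were 64.7% of the enzymes and 33.3% of the hypoxia genes, against 38.8% of all tested genes. Those called lower were 29.4% and 16.7%, against 38.6%. Whether the 2 groups of genes differed was not tested.

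Adding FK228 to YF cells raised most members, as it did in control cells. Between FK228+YF and YF cells, 26 members were higher and 9 lower (85.4%, against 70.6% of all tested genes), with a median log2 fold change of 0.41. The same comparison called 34.7% of all tested genes higher and 35.9% lower. Of the hypoxia targets 6 were higher and 1 lower. Ndrg1 rose by 1.34 ± 0.16 and Adm by 1.39 ± 0.23 (adjusted p = 1.78e-05 and 1.79e-05), Eno2 by 2.01 ± 0.13 and Pfkfb4 by 1.45 ± 0.10 (adjusted p = 1.67e-11 and 5.43e-11), and Slc2a2 fell by 2.37 ± 0.19 (adjusted p = 3.44e-10). Libraries of the 2 groups did not overlap for 37 of 41 members (75.3% of all genes). Adding YF to FK228 cells, by contrast, lowered 21 members and raised 6 (65.9%, against 52.9% of all genes), with a median of -0.23. There, 26.3% of all genes were called lower and 26.6% higher. Libraries did not overlap for 33 of 41 (60.1% of all genes). With each library left out in turn the count raised was 3 to 7, and it was 3 without FK228 replicate 2. Among the 17 enzymes 10 were lower and 3 higher, and among the hypoxia targets 4 were lower and 0 higher. Pklr fell by 0.93 ± 0.07, Pfkl by 0.78 ± 0.11, Ankrd37 by 0.78 ± 0.12 and Pdk1 by 0.67 ± 0.09 (adjusted p = 1.5e-09, 2.11e-05, 2.46e-05 and 8.04e-06). The genes that rose were Pfkm, Pfkp, Pfkfb3, Pfkfb4, Eno2 and Epas1, with Pfkfb4 at 1.22 ± 0.10 and Epas1 at 0.86 ± 0.12 (adjusted p = 4.72e-09 and 5.94e-06). The call of Pfkm was lost without FK228 replicate 2 or FK228+YF replicate 2 (adjusted p from 0.0585 to 0.117), that of Pfkp without FK228 replicates 1 or 2 or FK228+YF replicates 1, 2 or 3 (adjusted p from 0.0512 to 0.103), and that of Eno2 without FK228 replicate 2 or FK228+YF replicate 3 (adjusted p from 0.0513 to 0.0819).

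The test of the difference itself, the FK228 effect in YF cells minus that in control cells, called 16 members, 6 positive and 10 negative (39%, against 26.5% of all tested genes). Over all tested genes 11.1% were called positive and 15.3% negative. Hif1a had the smallest p, as FK228 raised it by 0.24 ± 0.05 in YF cells and by 1.03 ± 0.05 in control cells, a difference of -0.78 ± 0.07, adjusted p = 1.66e-07. Hk2 rose by 0.83 ± 0.10 with FK228 in control cells, against 0.13 ± 0.10 in YF cells, which was not called, a difference of -0.69 ± 0.14, adjusted p = 0.000829. For Pklr and Pfkl the FK228 effect was more negative in YF cells, by 0.52 ± 0.10 and 0.61 ± 0.15 (adjusted p = 0.000614 and 0.00755). For Ndrg1, Aldoc, Epas1, Eno2 and Pfkfb4 it was more positive in YF cells, by 1.02 ± 0.22, 0.80 ± 0.18, 0.60 ± 0.18, 0.59 ± 0.18 and 0.59 ± 0.15 (adjusted p = 0.00658, 0.00275, 0.0175, 0.0217 and 0.00786). Vegfa, Pgk1, Ldha and Pgam1 had differences of -0.40 ± 0.11, -0.35 ± 0.09, -0.34 ± 0.09 and -0.34 ± 0.09 (adjusted p = 0.00948, 0.00813, 0.00897 and 0.0109). The calls of Pfkp (-0.44 ± 0.16), Pdk1 (-0.38 ± 0.13) and Pfkfb3 (0.25 ± 0.09) had adjusted p of 0.0466, 0.0395 and 0.0426. The Pfkp call was lost without FK228 replicates 2 or 3, YF replicates 1 or 3, FK228+YF replicates 1, 2 or 3 or control replicate 1, with the filter of 5 CPM or with the replicate number as a block (adjusted p from 0.0507 to 0.107). The Pdk1 call was lost without FK228 replicates 2 or 3, YF replicates 1, 2 or 3, FK228+YF replicates 1 or 2 or control replicate 1 (adjusted p from 0.0517 to 0.106), and that of Pfkfb3 without FK228 replicates 1, 2 or 3, YF replicates 2 or 3, FK228+YF replicates 2 or 3 or control replicate 2, with no count filter or with the replicate number as a block (adjusted p from 0.0658 to 0.125). The Eno2 call was lost without YF replicate 2, FK228+YF replicate 3 or control replicates 2 or 3 (adjusted p from 0.0599 to 0.0863), and that of Epas1 without control replicate 3 (adjusted p = 0.079).

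**Figure D5:**
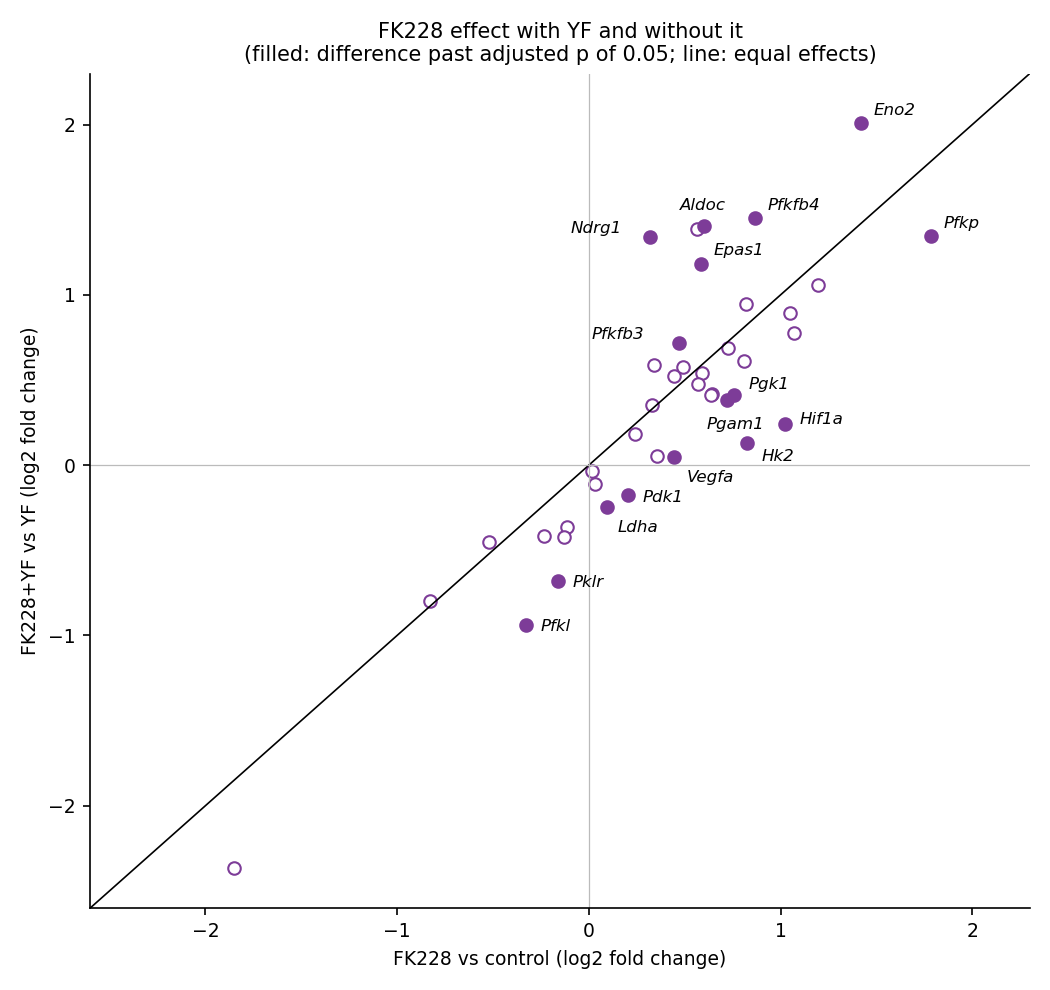
Log2 fold change of the 41 tested genes for FK228+YF against YF (vertical) and for FK228 against control (horizontal). The line marks equal effects, and the 16 filled, named genes differed past an adjusted p of 0.05. Hif1a and Hk2 lie below the line and Ndrg1 above it.

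Isoform ratios within each library describe the same shifts without any scaling between libraries. Of 17 pairs, 16 could be computed in every library; Ldhb to Ldha could not, because Ldhb was listed at 0 in a library. The ratios of the FK228, YF and FK228+YF libraries did not overlap with control for 12, 6 and 13 pairs, with 6 ratios higher and 6 lower for FK228, 1 and 5 for YF, and 8 and 5 for FK228+YF. No share over other gene pairs was computed. Single genes, by CPM, did not overlap in 69.6%, 44% and 78.7% of all tested genes, so the counts of ratios are a description only. The exact two-sided permutation test cannot go below 0.1 with 3 libraries against 3, and over the 48 tests the adjusted value was 0.155 at best, so none could pass. The ratio of Pfkp to Pfkl in TPM was 0.171 with FK228, 0.0751 with YF and 0.353 with FK228+YF, against 0.0391 in control cells (geometric means). That of Pfkm to Pfkl was 0.712, 0.38 and 1.4 against 0.324, and that of Pklr to Pkm 0.0198, 0.029 and 0.0112 against 0.0362. The ratio of Eno2 to Eno1 was 0.00801, 0.00312 and 0.0133 against 0.00302. The Slc2a1 to Slc2a2 ratio was 43.3 with FK228, 10.3 with YF and 67.5 with FK228+YF, against 9.42 in control cells. Adding 1 TPM to both levels, which weighs on the low Slc2a2, took the fold of this ratio over control to 2.84 with FK228 and 3.29 with FK228+YF, against 4.6 and 7.17 without it. Without control replicate 1, 10 ratios did not overlap between YF and control. P4ha2 to P4ha1 was 0.804, 0.906 and 0.582 against 1.16. Epas1 to Hif1a was lower than control with FK228, at 0.0571, and higher with FK228+YF, at 0.123, against 0.0763 in control cells. The highest FK228 ratio of this pair, 0.0602, lay only just below the lowest control ratio, 0.0608. Egln3 to Egln1 was 0.761 with FK228 and 0.964 with FK228+YF, against 0.491 in control cells.

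Other genes of these pathways were counted from longer lists. Of 26 other tested genes of glycolysis and pyruvate entry, 13 were higher and 3 lower with FK228, 9 and 4 with YF, and 18 and 3 with FK228+YF, with median log2 fold changes of 0.32, 0.17 and 0.76. The shares called were 61.5%, 50% and 80.8%, against 68.8%, 32.6% and 77.4% of all tested genes in the same comparisons. Of the 26 genes 6 did not reach the filter's level in all control libraries, and these gave 3 of the higher calls with FK228, 1 with YF and 5 with FK228+YF. They passed through groups where they are high, so no support is drawn from their calls. Slc2a4, the insulin-regulated transporter GLUT4, is 1 of them, at 2.22 ± 0.148, 1.5 ± 0.674, 6.95 ± 1.12 and 0.219 ± 0.0448 CPM in FK228, YF, FK228+YF and control cells. Tigar, a fructose bisphosphatase that p53 induces, rose by 0.60 ± 0.09, 0.61 ± 0.08 and 1.39 ± 0.08 with FK228, YF and FK228+YF, and Minpp1, an inositol and bisphosphoglycerate phosphatase, by 1.05 ± 0.05, 0.45 ± 0.05 and 1.50 ± 0.05, all called. Bsg, the chaperone of lactate carriers, rose by 0.94 ± 0.09 with FK228 and 0.78 ± 0.09 with FK228+YF, and Ldhd, which oxidises D-lactate, by 0.80 ± 0.17 and 1.44 ± 0.17. With YF, Pdp2, a phosphatase that reactivates PDH, fell by 0.46 ± 0.14.

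Of 22 other genes of glucose production and glycogen, 14 were higher and 7 lower with FK228, 7 and 4 with YF, and 13 and 7 with FK228+YF, with median log2 fold changes of 0.35, 0.01 and 0.37. The shares called were 95.5%, 50% and 90.9%, against 68.8%, 32.6% and 77.4% of all tested genes. Pcx, pyruvate carboxylase, the entry step of glucose production, averaged 28.5 ± 2.31, 31.9 ± 2.85, 90.7 ± 3.69 and 12.8 ± 0.89 CPM in FK228, YF, FK228+YF and control cells. It rose by 1.16 ± 0.09, 1.32 ± 0.08 and 2.83 ± 0.08 with FK228, YF and FK228+YF (adjusted p = 1.2e-10, 1.87e-10 and 2.15e-17). Got1, an aspartate aminotransferase, rose by 1.35 ± 0.05, 0.55 ± 0.05 and 1.70 ± 0.05, all called. Fbp2, the muscle fructose bisphosphatase, had 1.12 ± 0.091, 1.78 ± 0.481, 3.29 ± 0.686 and 0.348 ± 0.177 CPM in FK228, YF, FK228+YF and control cells, and it passed the filter through groups where it is high, since it did not reach the filter's level in all control libraries. Slc37a4, the glucose 6-phosphate transporter of the endoplasmic reticulum, fell by 1.47 ± 0.09, 0.50 ± 0.09 and 1.99 ± 0.10, and the glycogen branching enzyme Gbe1 by 0.36 ± 0.11, 0.78 ± 0.12 and 1.12 ± 0.12, all called. Ppp1r3c, a glycogen-targeting phosphatase subunit, rose by 1.31 ± 0.17 with FK228 and 0.85 ± 0.17 with FK228+YF. Of 4 genes of glucose sensing, 1 was higher with FK228, 0 with YF and 3 with FK228+YF, with 0 lower in each. The shares called were 25%, 0% and 75%, each below the 68.8%, 32.6% and 77.4% of all tested genes. Txnip, a glucose-induced inhibitor of glucose uptake, rose by 1.11 ± 0.08 with FK228 and 1.29 ± 0.08 with FK228+YF. Mlx and Mlxipl, the partners that drive it, rose by 0.57 ± 0.07 and 0.31 ± 0.12 with FK228+YF. Neither was called with FK228 or with YF.

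Of 10 other hypoxia pathway factors, 5 were higher and 3 lower with FK228, 1 and 3 with YF, and 4 and 5 with FK228+YF, with median log2 fold changes of 0.20, -0.11 and -0.16. The shares called were 80%, 40% and 90%, against 68.8%, 32.6% and 77.4% of all tested genes. Arnt2, a dimer partner of HIF alpha subunits best known from neurons, averaged 6.63 ± 1.05, 2.26 ± 0.647, 6.0 ± 0.595 and 0.787 ± 0.144 CPM in FK228, YF, FK228+YF and control cells and rose by 3.07 ± 0.22, 1.51 ± 0.25 and 2.92 ± 0.22 (adjusted p = 9.11e-11, 9.18e-05 and 1.08e-10). Hif3a, whose short forms oppose the other HIFs, fell by 0.53 ± 0.17, 0.83 ± 0.17 and 1.21 ± 0.18, all called. Vhl, which tags hydroxylated HIF for destruction, fell by 0.31 ± 0.09 with YF and 0.40 ± 0.09 with FK228+YF. Cited2, a HIF-induced competitor for its coactivator, rose by 0.39 ± 0.06 with FK228 and fell by 0.29 ± 0.06 with YF and 0.23 ± 0.06 with FK228+YF. Mxi1, a MYC antagonist, and Hif1an, an asparagine hydroxylase of HIF, rose by 1.00 ± 0.07 and 0.62 ± 0.06 with FK228+YF. With FK228 the repressor gene Bhlhe40 rose by 0.49 ± 0.05 and the ubiquitin ligase gene Siah2 fell by 0.48 ± 0.11.

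Of 26 other tested hypoxia targets, 14 were higher and 5 lower with FK228, 4 and 6 with YF, and 11 and 8 with FK228+YF, with median log2 fold changes of 0.29, -0.01 and -0.01. The shares called, 73.1%, 38.5% and 73.1%, were near the 68.8%, 32.6% and 77.4% of all tested genes. Ppfia4, 1 of the 26, did not reach the filter's level in all control libraries. It gave 1 of the higher calls with FK228 and 1 with FK228+YF, and no support is drawn from these. Rora, a nuclear receptor, rose by 1.72 ± 0.21, 0.63 ± 0.23 and 2.00 ± 0.20 with FK228, YF and FK228+YF, all called. Stc2, a stanniocalcin, fell by 1.401 ± 0.14 with FK228 and 1.82 ± 0.15 with FK228+YF, and Zfp395, a zinc finger gene, fell by 0.71 ± 0.10, 0.52 ± 0.10 and 1.43 ± 0.11. Stc1 fell by 1.90 ± 0.43 with FK228. Ero1a, an oxidase of protein folding, averaged 193 ± 34.7, 63.4 ± 0.706, 100 ± 3.06 and 126 ± 26.2 CPM in FK228, YF, FK228+YF and control cells. Like Ankrd37 and Bnip3, it was higher with FK228 (0.62 ± 0.15, adjusted p = 0.00412) and lower with YF (-0.99 ± 0.16, adjusted p = 0.000773), and its estimate with FK228+YF was -0.33 ± 0.15 (adjusted p = 0.0704).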

How the data were processed

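Total RNA of 12 AML12 libraries was sequenced paired-end (BGISEQ), per the labels' protocols. The authors deposited, per the file headers, expected counts (estimated counts not scaled to library size), TPM and FPKM per gene. GRCm38.p6, RSEM 1.2.12, Bowtie2 2.2.5, HISAT2 2.0.4 and DESeq2 1.4.5 are named, per the submitters' processing notes, with no role or order. The sources used here do not give annotation, strand or filters. Of the count values 16.6% were not whole and were rounded. 28 other value columns were not used.

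Groups came from the sample titles. Genes were filtered with filterByExpr (minimum count 10), scaled by TMM and fitted with edgeR 4.0.16 by quasi-likelihood, each group having its own term (R 4.3.3, limma 3.58.1), with Benjamini-Hochberg adjustment over 13346 genes. The code was tested on simulated data. Isoform ratios used the deposited TPM, and the deposited FPKM as an alternative. The alternatives were RLE scaling, no count filter, 5 CPM in 3 libraries, DESeq2 1.42.0, limma-voom, the compared groups alone, the replicate number as a block, leaving out each library, and 1 TPM added before the ratios. Adding Eno1b to Eno1 was chosen after seeing the data. The members and lists were chosen with earlier results of these data known. Named were, per comparison with control, up to 20 called members with a mean CPM of 1 or more by size of change, their isoform partners, members called in the interaction, untested members, and up to 4 called genes of each other list, of which some are not reported here. TPM, like CPM, is relative to each library's total, so a change in total RNA per cell is not seen.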

Additional observations from a re-analysis of the deposited data

Results flagged for a closer look

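For 16 of the 41 tested members the FK228 effect differed between YF cells and control cells, by the interaction test of edgeR at an adjusted p of 0.05. That is 39%, against 26.5% of all tested genes. The difference is the log2 fold change of FK228+YF over YF minus that of FK228 over control. It was negative for Hk2 (-0.69), Pfkl (-0.61), Pfkp (-0.44), Pgk1 (-0.35), Pgam1 (-0.34), Pklr (-0.52), Ldha (-0.34), Pdk1 (-0.38), Hif1a (-0.78), Vegfa (-0.40). It was positive for Aldoc (0.80), Pfkfb3 (0.25), Pfkfb4 (0.59), Eno2 (0.59), Epas1 (0.60), Ndrg1 (1.02). Among them FK228 raised Hif1a in both backgrounds, by less in YF cells. The glycolytic genes Pgk1 and Pgam1 were also raised in both, while Hk2 and Vegfa were called higher with FK228 only in control cells, a contrast that the interaction test itself passed for both. No group holds 4 or more libraries, so no library was tested as an outlier.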

How the results depend on the processing

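Over 159 called results of single members, the alternatives gave 2858 values with the same direction and call, 144 that lost the call and 0 reversed; of the isoform ratios that did not overlap, 422 values moved by less than 1 SD and 12, all with 1 TPM added, by more, with 0 reversed. The 159 results leave out members called only under an alternative. Without control replicate 1, Slc2a1 (-0.313), Pfkl (-0.312), Aldoa (-0.202), Tpi1 (-0.287), Eno2 (-0.415) and Egln3 (-0.672) were called lower with YF. Epas1 was called higher with YF without control replicate 3 (0.426) or YF replicate 2 (0.378). With FK228, Tpi1 (-0.252) and Egln1 (-0.221) were called lower without control replicate 1, and Ldha (0.128) higher in DESeq2. With FK228+YF, Slc2a1 was called higher with the filter of 5 CPM (0.204) or without control replicate 3 (0.265). P4ha2 (0.227) was called higher without control replicate 3, and Ankrd37 (-0.343) lower without control replicate 1. Leaving out each library in turn, the count of members lower with YF ran from 6 to 18, and the count higher in FK228+YF than in FK228 cells from 3 to 7. The isoform ratios not overlapping between YF and control ran from 6 to 10. Whether the replicate numbers pair the samples is not given in the sources used here, and no sign of pairing was seen. Same-numbered libraries deviated from their group means with correlations of -0.215 to 0.089 over genes, and libraries of different numbers with -0.126 to 0.195. A small shared effect could go unseen in so few libraries. With the replicate number as a block, 31 members were called for FK228, 16 for YF and 31 for FK228+YF against control, 34 for FK228+YF against YF, 25 against FK228 and 14 for the interaction. With RLE scaling the median log2 fold change of all genes was 0.02 for FK228 against control (-0.02 with TMM) and 0.03 for FK228+YF against YF. Depth limits the low genes: the approximate 95% interval of Slc16a3 with FK228, taken from the SE, ran from -0.47 to 1.17 on the log2 scale.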
